A study of Homo sapiens with 6 samples.

Results

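The 10 genes described here are the Notch receptors Notch1 to Notch4, the Notch ligands Jag1, Jag2 and Dll1, and the Notch target genes Hes1, Hey1 and Nrarp. They were taken from the deposited count table by gene symbol, and 10 of 10 symbols were found among its 22989 genes. The paper describes the sequenced cells as paclitaxel (PTX)-resistant MDA-MB-231 BCSC, breast cancer stem-like cells of a human triple-negative line. It sorted such cells for aldehyde dehydrogenase activity. By that description both groups share the PTX resistance and the sort, and the intended difference is LINC00115, a long noncoding RNA. Of the libraries, 3 were labelled LINC00115 knockdown (KD) and 3 were labelled WT. Markers of other cell types, given below, also separated the groups. The comparison therefore asks which Notch genes differed between libraries labelled KD and WT, and whether LINC00115 was the source of a difference was not tested. By the study's methods, shRNA was delivered by virus and infected cells were selected with puromycin. The paper names a single hairpin for this experiment, while the KD columns are numbered in the way it numbers its hairpins. Which hairpin each KD library carried is therefore not certain, and an effect of the hairpin itself was not tested. The labels call the controls wild type while the paper's control is an shRNA, so it is not known whether the WT cells were infected and selected too. The labels also do not say whether the 3 samples of a group were separate cultures, so p-values measure the spread between these samples, which may be technical.

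Notch signalling passes a message between touching cells. A ligand of the Jagged or Delta family on a cell binds a Notch receptor on its neighbour, the receptor is cut by an ADAM protease and then by gamma-secretase, and its freed intracellular domain enters the nucleus, where with RBPJ and a Mastermind co-activator it switches on target genes such as Hes1, Hey1 and Nrarp. In breast tissue the pathway is known for its part in stem and progenitor cells, and Jagged ligands are much studied in triple-negative tumours.

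Library totals lay between 36979221 and 38799331 counts. The table's symbols are in the style of mouse genes, with 5777 Gm or Rik names, and 16 of 22989 symbols equal a human symbol as written, so genes are named as the table names them and have no positions here. No row is named LINC00115 (0 rows), and the knockdown could not be checked in these counts. Of the markers of the labelled cells, Krt8, Krt18, Vim and Cd44 had at least 4856 counts in every library, whereas Epcam, Aldh1a3 and Prom1 had at most 5, 4 and 3 counts, and Aldh1a1 between 8 and 52. In the KD libraries 10 of 10 lung epithelial markers and 9 of 10 kidney markers were higher than in every WT library, and Scgb1a1, Sftpc and Kap were at 0 in every WT library. The share of all genes separated in this way was not counted, so these and the later marker counts have no such background beside them. In the test described below, 36.7% of all genes tested were higher in KD and 36.7% lower at an adjusted p under 0.05. The summed level of the lung list was 1.70 to 2.12 normalized CPM in WT and 74.7 to 85.4 in KD, and that of the kidney list was 16.7 to 19.5 and 45.4 to 49.0. The leukocyte list summed to 34.9 to 35.9 in WT and 99.8 to 111 in KD, with 4 of 10 markers higher in every KD library, while Ptprc had at most 13 counts and Cd3e was at 0 in all libraries. Most of that sum was S100a8, a calcium-binding protein, at 32.2 to 34.4 in WT and at least 87.9 in KD, and without it the list summed to 1.46 to 2.78 in WT and at least 11.9 in KD. Normalized CPM express each count as a share of the TMM-scaled library total. The part of these transcripts in the Notch results was not tested. In bulk RNA, fewer cells expressing a gene and less of its RNA per cell cannot be told apart.

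Among the targets, Hes1 carries the best known RBPJ sites, so its start region is shown with that of Nrarp, the target whose level is set against it below. Both are human sequence from RefSeq (GRCh38.p14, 250 bases before to 50 after the start of the gene), and capitals mark GTGGGAA and GTGTGAA, forms of the RBPJ motif, searched on both strands. HES1 lies on the plus strand at chr3:194135898-194136197 and NRARP on the minus strand at chr9:137302222-137302521.
HES1: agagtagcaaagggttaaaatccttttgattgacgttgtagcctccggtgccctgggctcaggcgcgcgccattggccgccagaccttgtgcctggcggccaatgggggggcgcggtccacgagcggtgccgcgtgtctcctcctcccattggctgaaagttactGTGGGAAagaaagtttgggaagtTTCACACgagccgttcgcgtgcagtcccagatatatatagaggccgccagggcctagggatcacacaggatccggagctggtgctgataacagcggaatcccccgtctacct
NRARP: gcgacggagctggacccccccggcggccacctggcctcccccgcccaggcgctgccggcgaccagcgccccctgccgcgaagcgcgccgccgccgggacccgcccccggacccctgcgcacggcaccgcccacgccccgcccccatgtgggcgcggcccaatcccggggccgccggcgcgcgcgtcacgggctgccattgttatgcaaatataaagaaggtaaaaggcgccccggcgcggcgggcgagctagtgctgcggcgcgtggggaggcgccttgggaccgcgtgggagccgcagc
The HES1 window holds both forms, GTGGGAA from base -85 and, on the other strand, GTGTGAA (read TTCACAC here) from base -62 relative to the start. The NRARP window holds neither. Of 8 members with a promoter in the RefSeq table, 1 held a motif, while 8.98% of all 35116 promoters there did (6.25% with GTGGGAA and 3.00% with GTGTGAA). These are descriptions of letters in human windows. The counts carry the names of mouse genes (5777 Gm or Rik names), although the cells are labelled human. The windows are therefore not those of the genes as named in the counts, and the annotation release is not given. DLL1 and HEY1 had no entry.

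Jag1 rose about 3-fold in the KD libraries, while the other well-counted ligand, Dll1, and the targets Hes1 and Hey1 fell. Among the receptors, Notch2 and Notch4 rose and Notch1 fell. Nrarp, Notch3 and Jag2 did not pass the test. A gene passed when its p-value in the quasi-likelihood test of edgeR, adjusted over 13497 genes, was under 0.05, and was called when its fold change also exceeded 2, the thresholds of the study's methods. By the first rule 7 of 10 members passed, 4 lower and 3 higher, and by the second Hey1 was called lower and Jag1 higher. Over all genes tested 73.4% passed, 36.7% lower and 36.7% higher, and 9.98% were called lower and 10.2% higher. The members' counts are therefore near the background, and nothing particular to Notch genes is read from them. The median log2 fold change was 0.10 over the members and -0.01 over all genes tested. All 10 members passed the filter on low counts, but Hey1 passed it in the 3 WT libraries and in 0 of the KD libraries.

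**Figure D1:**
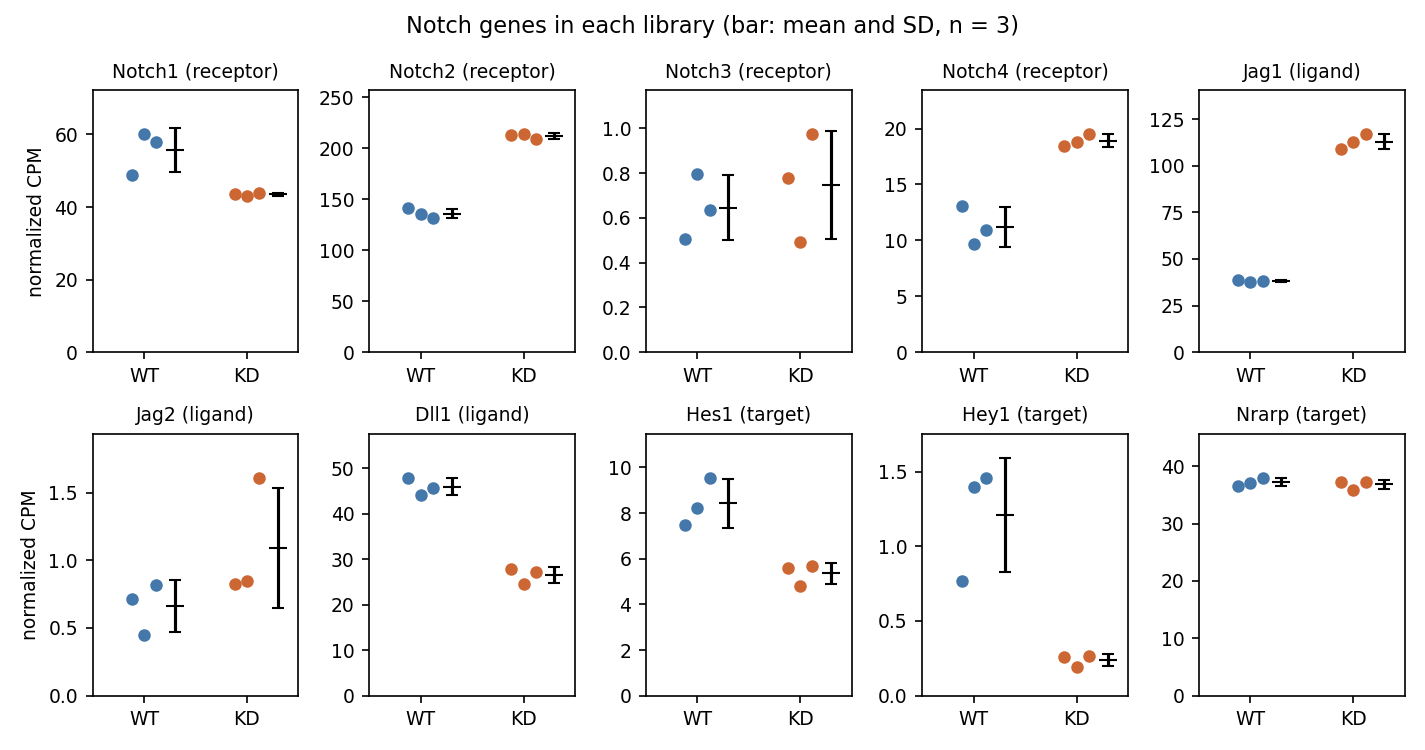
Normalized CPM (vertical axes, each from 0) of the 10 Notch genes in the 3 WT and 3 KD libraries; points are libraries, and the bar beside them gives the mean and SD (n = 3). Jag1 lay between 37.9 and 38.8 in WT and between 109 and 117 in KD, while Nrarp lay between 35.8 and 38.0 in all 6 libraries.

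Of the receptors, Notch2 had the most counts. Its level was 141, 136 and 132 normalized CPM in WT replicates 1 to 3 and 213, 214 and 209 in KD replicates 1 to 3. The groups were far apart and each was tight. From 136 ± 4.10 to 212 ± 2.61 (SD, n = 3 each), Notch2 rose 1.56-fold, with a log2 fold change of 0.64 ± 0.04 (standard error) and an adjusted p of 7.07e-17.

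Notch1, the receptor most often altered in leukaemia, went the other way. The WT libraries held 48.7, 60.1 and 58.0 normalized CPM and the KD libraries 43.7, 43.0 and 44.0. Every KD library was below every WT library, and WT replicate 1 lay closest to them. The log2 fold change was -0.35 (standard error 0.06, adjusted p = 7.41e-06), and it ranged from -0.44 to -0.29 when each library was left out in turn.

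Notch4, known mainly from endothelium and from mouse mammary tumours, had 13.1, 9.64 and 10.9 normalized CPM in WT and 18.4, 18.8 and 19.5 in KD. All KD libraries were higher, and the WT libraries spread more (coefficient of variation 15.8% against 3.08%). Its log2 fold change was 0.75 (standard error 0.10, adjusted p = 4.88e-08). Because Notch4 marks endothelium, the endothelial list was read beside it. Its summed level was 93.5 to 96.4 normalized CPM in WT and 121 to 128 in KD, with 4 of 12 markers higher and 3 lower in every KD library than in every WT library. The list did not move one way. The higher markers were Cdh5, Esam, Kdr and Cldn5. Kdr (0, 0 and 1 counts in WT, 2, 10 and 2 in KD) and Cldn5 (0 in every WT library, 9, 9 and 18 in KD) were not tested. Flt1, a receptor for vascular growth factors, made up most of the sum in WT and was lower in KD, at 86.7, 84.0 and 81.8 normalized CPM in WT and 55.9, 60.9 and 53.8 in KD. Egfl7 and Tie1 were the other lower markers, and on Egfl7 the groups nearly touched, at 7.86 and 7.81. Cdh5, a junction gene, went from 14, 5 and 6 counts in WT to 2175, 2136 and 2243 in KD. Without Cdh5 the sum was 93.3 to 96.1 in WT and 62.3 to 70.3 in KD. Kdr, Tek, Emcn and Erg had under 15 counts in every library, Pecam1 between 6 and 19, and Emcn was at 0 in WT. These markers were picked for mention after their values were seen.

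Notch3, the receptor of vascular mural cells, was near the limit of detection of a change. It had 19, 30 and 24 counts in WT and 30, 18 and 37 in KD, and the groups overlapped. The fitted log2 fold change of 0.21 had a 95% interval from -0.73 to 1.15 (adjusted p = 0.688), an interval that includes a 2-fold rise, so no change was detectable at this depth. The mural list summed to 2.09 to 2.20 normalized CPM in WT and 2.46 to 3.90 in KD, with 4 of 10 markers higher in every KD library and 2 lower. Acta2 had between 2 and 7 counts in WT and between 14 and 27 in KD. Rgs5 (10 to 31 counts in WT, 3 to 8 in KD) and Pdgfrb (26 to 35 and 21 to 25) were the 2 lower markers. Rgs5 was not tested, and Pdgfrb did not pass (log2 fold change -0.45, adjusted p = 0.371). Cspg4 (8 to 11 counts in WT, 9 to 18 in KD) overlapped between groups, with a log2 fold change of 0.63 (adjusted p = 0.331).

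Receptor counts were also set against each other within each library, where no scaling between libraries enters. Gene models differ in length, and the lengths used for counting are not given, so these ratios say nothing of which receptor was the more abundant and only their change between libraries is read. There were 2.89, 2.26 and 2.28 Notch2 counts per Notch1 count in WT and 4.88, 4.98 and 4.76 in KD. The ratio of Notch4 to Notch1 was 0.270, 0.160 and 0.187 in WT and 0.420, 0.437 and 0.444 in KD. Both ratios were higher in every KD library, the first by 1.97 times and the second by 2.11 times on the means. They restate the rises of Notch2 and Notch4 and the fall of Notch1 given above. Of all counts on the 4 receptors, Notch1 took 24.0% to 29.1% in WT and 15.6% to 16.1% in KD.

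Among the ligands Jag1 showed the largest rise of the members. It is a Jagged ligand that is itself switched on by Notch in some tissues, and it had 38.8, 37.9 and 38.1 normalized CPM in WT against 109, 113 and 117 in KD. The WT libraries agreed within 1.16% (coefficient of variation), and the lowest KD library lay far above the highest WT library. From 38.2 ± 0.442 to 113 ± 4.11 (SD, n = 3 each), Jag1 was 2.96-fold higher in KD, with a log2 fold change of 1.57 ± 0.05 (standard error) and an adjusted p of 9.01e-25.

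Dll1, a Delta ligand, fell. Its libraries held 47.9, 44.1 and 45.7 normalized CPM in WT and 27.9, 24.6 and 27.2 in KD, with no overlap. The log2 fold change was -0.79 (standard error 0.07, adjusted p = 7.40e-13), a 1.73-fold lower level that did not reach the 2-fold limit of a call.

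Jag2, the second Jagged ligand, had few counts. There were 27, 17 and 31 in WT and 32, 31 and 61 in KD. The groups met at 31 counts (on normalized CPM, 0.820 was the highest in WT and 0.827 the lowest in KD), and KD replicate 3 stood above the other 5 libraries. Its log2 fold change of 0.72 had a 95% interval from -0.16 to 1.60 (adjusted p = 0.135), and without single libraries the estimate ran from 0.34 to 0.90.

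Taken within each library, Jag1 had 0.809, 0.860 and 0.832 counts per Dll1 count in WT and 3.91, 4.60 and 4.32 in KD. The ratio was thus below 1 in every WT library and above 3 in every KD library, a 5.13-fold difference of the means. It restates the rise of Jag1 and the fall of Dll1. Jag1 took 44.3% to 46.0% of the counts on the 3 member ligands in WT and 79.2% to 81.6% in KD, and the share of Dll1 went from between 53.5% and 54.8% to between 17.7% and 20.2%.

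The targets did not move together. Hes1, a transcriptional repressor of the bHLH family that holds progenitors undifferentiated, had 7.46, 8.24 and 9.55 normalized CPM in WT and 5.58, 4.82 and 5.66 in KD. Each KD library was below each WT library. Its log2 fold change was -0.65 (standard error 0.14, adjusted p = 0.000152), or 1.57-fold lower.

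Hey1, a related bHLH repressor, showed the largest fold of the members on few counts, and the fewest of any member in KD. The WT libraries had 29, 53 and 55 counts and the KD libraries 10, 7 and 10. WT replicate 1 was the lowest of its group and still well above the KD libraries. The log2 fold change was -2.33 (standard error 0.50, 95% interval from -3.34 to -1.32, adjusted p = 9.39e-05), a 5.03-fold lower level. It ranged from -2.57 to -2.18 with single libraries left out. With a filter of at least 10 counts in every sample Hey1 was not tested.

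Nrarp, which binds the Notch transcription complex and dampens it, is among the most direct targets known. Its levels of 36.5, 37.1 and 38.0 normalized CPM in WT and 37.2, 35.8 and 37.3 in KD overlapped. The fitted log2 fold change of -0.02 had a 95% interval from -0.14 to 0.11 (adjusted p = 0.817), so the counts bound any change of Nrarp closely. Hes1 had 0.204, 0.222 and 0.252 counts per Nrarp count in WT and 0.150, 0.135 and 0.152 in KD. This ratio did not overlap between groups, which restates the fall of Hes1 beside a flat Nrarp. The window shown above for HES1 holds the motif pair and that for NRARP holds none, and a link between the motif and the change was not tested.

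**Figure D2:**
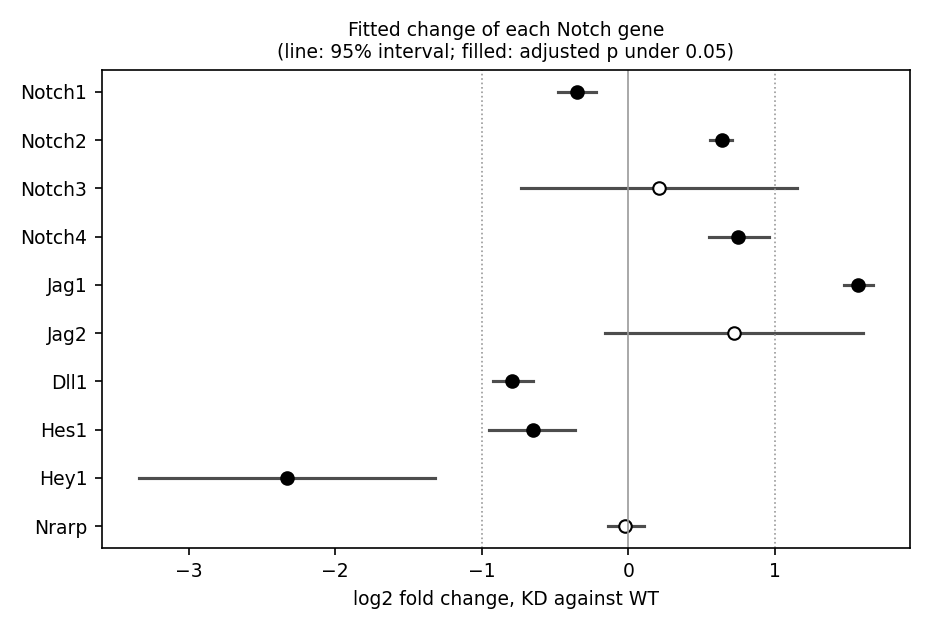
Fitted log2 fold change of each Notch gene (horizontal axis, KD against WT) with its 95% interval; filled points passed at an adjusted p under 0.05, and dotted lines mark a 2-fold change. Jag1 at 1.57 and Hey1 at -2.33 lie past the dotted lines, and the intervals of Notch3 and Jag2 are wide.

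The other genes of the pathway were read from a list of 66 in 8 roles. Of these, 63 were in the table and 53 were tested, and 18 were lower and 24 higher at an adjusted p under 0.05, which is 79.2% beside 73.4% of all genes. Lower calls numbered 2 and higher calls 5 of the 53, beside 9.98% lower and 10.2% higher of all genes tested. Nothing particular to the pathway is read from these counts. The median log2 fold change was 0.14.

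Of the further ligand genes, Dll4 and Dlk2 were called. Dll4, the Delta ligand of sprouting vessels, had 440, 567 and 373 counts in WT and 29, 28 and 37 in KD, with a log2 fold change of -3.87 ± 0.20 (standard error) and an adjusted p of 9.58e-19. Dlk2, a Delta-like protein without the domain that activates receptors, had 9.24, 10.5 and 9.10 normalized CPM in WT and 38.1, 34.1 and 39.9 in KD, a log2 fold change of 1.96 (adjusted p = 1.35e-20). With Dll4 counted in, Jag1 took 38.9% to 40.3% of the ligand counts in WT and 78.7% to 81.2% in KD, and Dll4 10.4% to 15.4% and 0.540% to 0.662%. Dll3 had at most 7 counts, Dner overlapped between groups (adjusted p = 0.425), and Dlk1 is not among the genes counted here.

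In the list of genes that add sugars to the receptors, 3 of 4 tested genes were higher and 0 lower, beside 36.7% of all genes in each direction, and nothing particular to so short a list is read from this. Lfng, the Fringe enzyme that adds sugar to Notch and shifts its preference between Delta and Jagged ligands, went from 6.08, 7.13 and 6.30 normalized CPM to 16.0, 14.1 and 15.7, with a log2 fold change of 1.23 ± 0.11 (standard error) and an adjusted p of 7.69e-12. Pofut1 (0.44) and Poglut1 (0.21), which start the sugar chains, also rose, and Rfng did not pass (log2 fold change -0.10, adjusted p = 0.260). Of 4 ubiquitin ligases that make ligands active, 3 were also higher and 0 lower, with Neurl1a called at a log2 fold change of 1.36 (adjusted p = 4.73e-10) and Mib1 (0.29) and Mib2 (0.43) below 2-fold.

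Of the genes of receptor cleavage (proteases and gamma-secretase subunits), 4 of 9 tested were lower and 2 higher, a share of 66.7% beside 73.4% of all genes, and 0 were called. Adam10, which makes the first cut of a bound receptor, had 196, 200.2 and 193 normalized CPM in WT and 141, 144 and 149 in KD, a log2 fold change of -0.44 (adjusted p = 1.45e-12). Ncstn, the gamma-secretase subunit nicastrin, had a log2 fold change of -0.24 (adjusted p = 1.23e-05).

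In the nuclear complex the DNA-binding protein Rbpj was flat, at 180, 171 and 174 normalized CPM in WT and 165, 174 and 176 in KD (log2 fold change -0.03, 95% interval from -0.10 to 0.05, adjusted p = 0.542). Of 7 tested genes of this complex, 3 were lower and 3 higher, a share of 85.7% beside 73.4% of all genes, and 0 were called. The 3 lower genes were the Mastermind co-activators. Maml1 went from 161, 154 and 152 to 103, 98.6 and 108, a log2 fold change of -0.60 (adjusted p = 8.29e-15), and Maml2 (-0.56) and Maml3 (-0.59) had similar values. The acetyltransferases Ep300 (0.15) and Kat2b (0.60) were higher, as was Snw1 (0.37). Of 13 co-repressor genes, 6 were lower and 6 higher (92.3% beside 73.4% of all genes), and Tle2, a Groucho protein recruited by Hes factors, was called lower (log2 fold change -1.46, adjusted p = 1.52e-08).

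In the turnover list 3 of 10 tested genes were lower and 4 higher, a share of 70.0% beside 73.4% of all genes. Both called genes were Deltex proteins, ubiquitin ligases linked to Notch trafficking: Dtx4 had a log2 fold change of 1.34 (adjusted p = 1.12e-21) and Dtx3l one of 1.63 (adjusted p = 1.12e-26). Dtx3l is better known as a partner of PARP9 in the interferon response than as a Notch regulator. Of the other targets, Hes6 was lower (-0.68, adjusted p = 0.0013) and Myc (0.92) and Ccnd1 (0.39) were higher, both of which many other pathways also control. The remaining Hes and Hey genes of the list had at most 25 counts in any library or are not among the genes counted here.

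**Figure D3:**
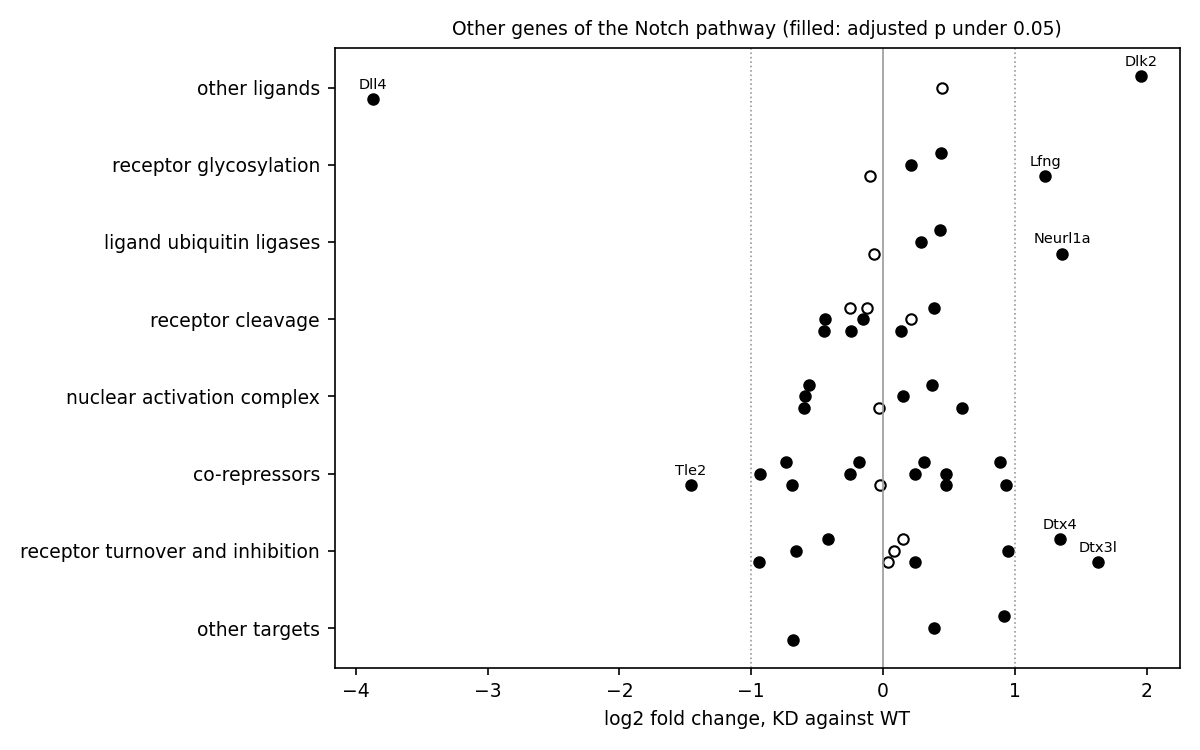
Fitted log2 fold change (horizontal axis, KD against WT) of the 53 tested genes of the wider Notch pathway, by role; filled points passed at an adjusted p under 0.05, dotted lines mark a 2-fold change, and called genes are named. Dll4 at -3.87 and Dlk2 at 1.96 are the extremes.

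Jag1 was the only called member whose higher group had 100 counts or more in each library, and the genes with the most similar pattern were looked up for it. Over the 6 libraries, the highest Pearson correlations of log2 CPM with Jag1 were those of Slc27a2 and Slco2a1 (r = 0.9998 for both). As the 6 points form 2 groups, 1160 of 13496 genes reached r above 0.99, so the likeness mostly describes the step between the groups. Slco2a1, a prostaglandin transporter, had 409 ± 0.627 normalized CPM in WT and 535 ± 5.49 in KD (SD, n = 3 each), and Slc27a2, a fatty acid transporter, had 0 in every WT library and 2.30 to 2.90 in KD.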

How the data were processed

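The authors trimmed adapters, mapped reads with HISAT2 to hg19 by their methods (the labels list hg38) and deposited whole-number counts per gene without normalization. The labels also name featureCounts and DESeq2. Annotation and strand use are not given in the sources used here, so counts of overlapping or near-identical genes are uncertain. Columns were assigned by name, and 0 columns of values went unused.

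The 6 libraries entered 1 fit of edgeR 4.0.16 (R 4.3.3): filterByExpr (minimum count 10, minimum total 15), TMM, the quasi-likelihood test with group only, and Benjamini-Hochberg adjustment over 13497 genes. Each standard error is |log2 fold change|/√F. The code was tested on simulated counts. No library was a copy: counts of pairs within a group had a chi-square per degree of freedom of 3.88 to 7.60, above sampling noise. With 3 libraries a group, totals near equal and a biological coefficient of variation of 5.21%, genes of few counts are the imprecise ones. Intervals cover this spread only.

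Members and lists were chosen with earlier results of these data known. Named are all members, called genes of the wider list, Rbpj, Maml1, Adam10 and Ncstn, and the 2 genes most like each called member with at least 100 counts in the higher group. Genes named beyond that were chosen after their values were seen. Alternatives were DESeq2 1.42.0, scaling by its size factors, by the upper quartile or by library size, other filters, single libraries left out, the replicate number as a block, and a test against a fold change of 1.5.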

Additional observations from a re-analysis of the deposited data

How the results depend on the processing

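The members called were the same, Hey1 lower and Jag1 higher, under every alternative run except 2: with at least 10 counts in every sample 0 members were called lower, since that filter removes Hey1, and in the test against a fold change of 1.5 there were 2 lower, Dll1 and Hey1. In that test 5 other pathway genes were lower (adding Hdac1, Kdm5a and Numbl) and 8 higher (adding Tle1, Cdk8 and Myc), against 2 and 5. Without single libraries, called members stayed at 1 lower and 1 higher, members past the adjusted p at 4 lower and 3 higher, and other pathway genes called at 2 to 3 lower and 5 to 6 higher. Of the genes with a fitted change near 0, the sign turned for Notch3 (-0.02 without KD replicate 3, up to 0.45), Nrarp (0.01 without KD replicate 2, down to -0.03) and Rbpj (0.01 without KD replicate 1, down to -0.04), none of which passed the test in any fit. Same-numbered libraries did not visibly deviate together (r = 0.0421, -0.0147 and -0.0214), and the other pairs ran from -0.0244 to 0.0391. No pairing by number was seen in the counts. Such small correlations cannot tell whether same-numbered samples were prepared together. With the replicate block, called genes numbered 1316 lower and 1360 higher of all tested, with 1 member lower and 1 higher. Depth limits Notch3, Jag2 and Hey1, each under 62 counts in every library.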
